A study of Mus musculus with 38 samples.

Results

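Tissue taken 4 days after inoculation of wild-type B16 melanoma cells was compared with control tissue, over all 9890 genes that could be named on Illumina bead arrays. The tissue came from the tumor microenvironment of C57BL/6 mice aged 8 weeks, per the labels, and the control tissue came from mice of the same strain and age. The day 4 group, titled B16-WT, held 4 arrays (D4-1 to D4-4) and the control group 7 arrays (control 1 to control 7), which made 11 of the 38 arrays of the study. No other treatment or allele is named for either group. The labels do not say from which site either tissue was cut, whether the control animals received an injection, or if each array stands for another animal. The p-values below therefore measure only the spread between arrays, which may be technical. Unless said otherwise, each limma fit estimates 1 spread per gene over all 38 arrays, so its SE and p also carry the other groups. The exact permutation test uses the 11 arrays alone.

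B16 is a mouse melanoma line that grows in C57BL/6 mice after injection and, in its wild-type form, makes melanin. A tumor under the skin displaces the dermis, fat and muscle into which it grows, and recruits endothelial cells, fibroblasts and leukocytes from the host. Genes of melanin synthesis, such as Dct and Tyrp1, are made by melanoma cells and by the normal pigment cells of hair follicles. Collagens mark fibroblasts, keratins such as Krt14 mark epidermis, and genes such as C1qa mark macrophages. In whole tissue, fewer cells of a type and less RNA per cell cannot be told apart.

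Levels are given as log2 intensity, corrected for background and quantile-normalized, and a difference is the day 4 mean minus the control mean on this scale, fitted with limma, where 1 is a 2-fold difference in intensity. On the 11 arrays between 17136 and 22405 probes were detected at a detection p under 0.05, with the lowest number on D4-4 and 19528 or more on the other 10. The median raw signal lay between 115.79 and 155.13 per array. The lowest value of a detected probe lay between 4.94 and 5.77 on the arrays, so values near 5 or below are close to background. The number of arrays limits the precision.

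Features of single arrays touch every result. D4-4 stood apart from the other 10 arrays. Its mean Spearman correlation with the controls was 0.646, against 0.861 for D4-1, 0.947 for D4-2 and 0.957 for D4-3. Its most similar array among all 38 was array 5 of the wild-type day 14 group, at 0.978. On D4-4, 2047 genes (20.7%) lay over 1 above the median of the controls and 2428 (24.6%) over 1 below it, against 37 and 87 genes on D4-3.

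D4-1 paired with control 6 rather than with its own group. Their correlation was 0.981, and each was the other's most similar array of all 38. The files do not show whether the labels of D4-1 and control 6 were exchanged, so a difference between the groups holds only as far as these 2 labels are right. With both left out, limma called 0 genes (smallest adjusted p 0.822) and 186 had an unadjusted p under 0.05, beside 195 with both kept, and 6 of 32 gene list medians moved by over 1.5 times, of which 2 changed sign. Both were high in hair root sheath keratins and low in fat genes. Krt28, a keratin of the inner root sheath, was 11.99 on D4-1 and 4.68 to 8.04 on the other day 4 arrays, against 12.60 on control 6 and 5.38 to 7.04 on the other controls. Car3, a carbonic anhydrase abundant in fat and muscle, was 9.28 on D4-1 and 9.99 on control 6, against at least 13.20 on every other array of the 11 except D4-4, where it was 4.40.

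Control 1 was poor in pigment genes. Mlana, which encodes a melanosome protein, was 4.63 and not detected on control 1, and 11.50 to 14.50 on the other 6 controls. On the day 4 arrays it was 14.31, 10.48, 13.56 and 13.61 from D4-1 to D4-4. The label of control tissue thus did not separate the arrays by pigment genes, since Mlana was detected on 6 of 7 controls and on 4 of 4 day 4 arrays.

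**Figure D1:**
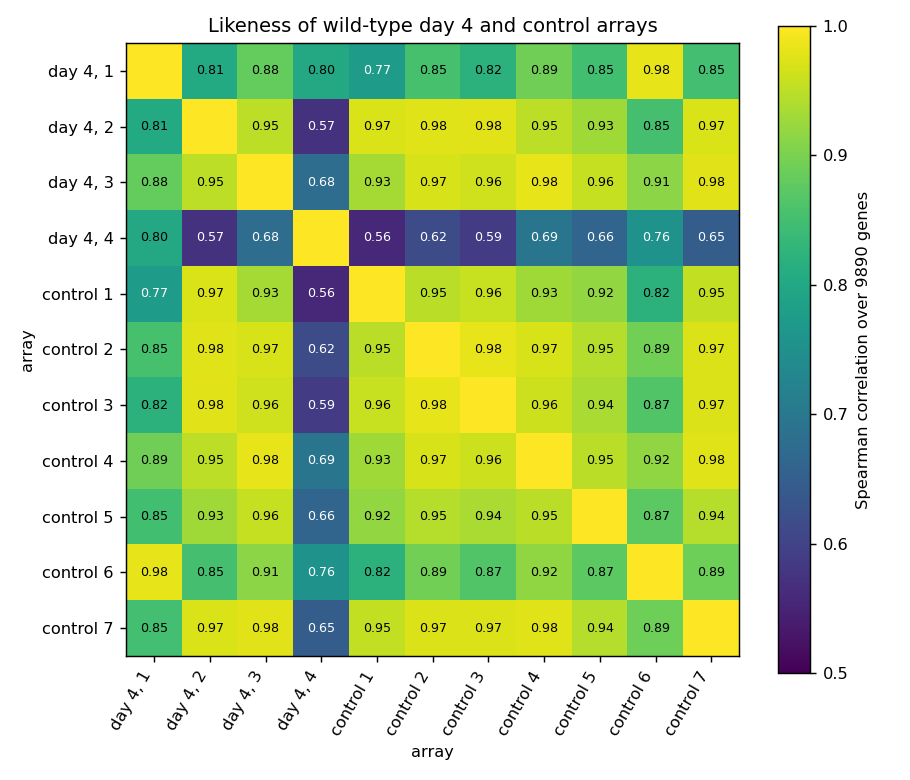
Spearman correlation between the 11 arrays over 9890 genes, with the 4 wild-type day 4 arrays first on each axis and the 7 control arrays after them. D4-4 had its highest correlation of the 11 with D4-1 (0.80) and correlated with the controls at 0.56 to 0.76, while D4-1 and control 6 correlated at 0.98.

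On average, arrays with the day 4 label were less like each other than controls were. The mean Spearman correlation was 0.782 among the day 4 arrays, 0.932 among the controls and 0.853 between the groups. Without D4-4 it was 0.879 among the day 4 arrays and 0.921 between the groups. D4-2 and D4-3 correlated at 0.950, above the control mean, while D4-1 correlated with them at 0.805 and 0.881. D4-2 was most like control 3 among the 11 arrays, D4-3 most like control 4, and controls 4, 5 and 7 most like D4-3.

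No gene differed between day 4 and control tissue at an adjusted p under 0.05. Limma, with Benjamini-Hochberg adjustment over 9890 genes, called 0 genes (0%), and the smallest adjusted p was 0.725. At an unadjusted limma p under 0.05 there were 195 genes (1.97%), of which 81 (0.819%) were higher and 114 (1.15%) lower on the day 4 arrays. The exact permutation test of each gene over the 330 arrangements of the 11 arrays also gave 0 genes after adjustment, with 343 at an unadjusted p under 0.05 and a smallest adjusted p of 0.629. In 189 of the 195 genes, D4-4 was the most extreme day 4 array in the direction of the difference. Without D4-4, limma again called 0 genes (0%), 4 genes had an unadjusted p under 0.05 (0.0404%), and the smallest adjusted p was 1.00. With another single array left out, 0 genes passed the adjusted threshold as well, and the number at an unadjusted limma p under 0.05 was 1607 without D4-2, 851 without D4-3, 591 without control 6, 125 without control 2, 104 without control 1, 96 without control 5 and 75 without control 3. Of the 195 genes 41.5% were higher on the day 4 arrays. Other settings put other genes at an unadjusted limma p under 0.05. Of these, 53.5% of 170 were higher without background correction and 28.1% of 231 with cyclic loess. With the 11 arrays normalized and fitted alone it was 59.8% of 214.

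The size of the differences rested on D4-4 as well. With all arrays 979 genes differed by over 1, of which 64 were higher and 915 lower on the day 4 arrays, and the median absolute difference was 0.31. Without D4-4 those numbers were 35, 4 and 31, and the median absolute difference was 0.16. The sign of the difference was the same with and without D4-4 in 7886 genes (79.7%). Over all genes the median difference was 0.05, and 0.01 without D4-4.

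**Figure D2:**
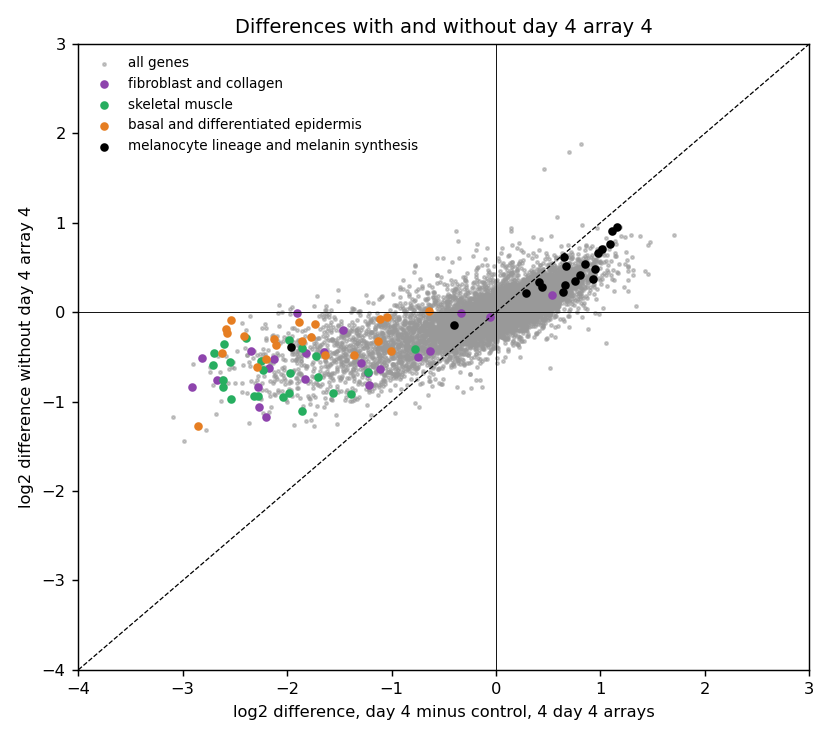
Log2 difference of each gene, day 4 minus control, with all 4 day 4 arrays (horizontal axis) and without D4-4 (vertical axis), with members of 4 gene lists in colour and equal values on the dashed line. The medians of the epidermis, muscle and collagen lists are -1.88, -2.13 and -1.82 with D4-4, and -0.31, -0.68 and -0.52 without it. Most pigment genes are positive on both axes.

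Of the 4 genes at an unadjusted p under 0.05 without D4-4, 3 were higher (0.0303%) and 1 lower (0.0101%) on the day 4 arrays. The gene known by the clone name 5730507C01Rik was 6.18, 5.21, 5.62 and 6.58 on D4-1 to D4-4, against 4.57 to 5.09 with a median of 4.82 on the controls. Its day 4 arrays all lay above the controls, and it was detected on 4 of 4 day 4 and 2 of 7 control arrays. The difference was 1.05 (SE 0.26, limma adjusted p = 0.725) with D4-4 and 0.83 (limma adjusted p = 1.00) without it. Both means, 5.90 ± 0.60 (SD, n = 4) and 4.84 ± 0.19 (SD, n = 7), were close to background. Without background correction the difference with all arrays was 0.35.

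Magi1, a scaffold protein of epithelial tight junctions, was 6.20, 6.43, 6.03 and 6.11 on D4-1 to D4-4 and 5.22 to 5.89, median 5.67, on the controls. The groups did not overlap, and D4-4 lay among the other day 4 arrays. The difference was 0.58 (SE 0.24) with D4-4 and 0.60 without it, with an adjusted limma p of 0.725 and 1.00. Without background correction it was 0.21 with all arrays. A second probe of Magi1 gave 0.45, with day 4 arrays from 5.69 to 6.12 and controls from 4.91 to 5.99, which overlap.

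Tcp11, a gene first described in testis, was 6.01, 5.57 and 5.48 on D4-1 to D4-3 but 4.55 on D4-4, against 4.76 to 5.17 on the controls. The 3 higher arrays lay above every control and D4-4 below every control. Its difference was 0.41 with D4-4 and 0.70 without it. Adamts15, a secreted protease that cleaves the matrix proteoglycans versican and aggrecan, was 4.85, 4.84, 5.42 and 4.81 on the day 4 arrays and 5.33 to 6.30, median 6.15, on the controls. It was detected on 1 of 4 day 4 arrays, D4-3, and on 7 of 7 controls, and D4-3 overlapped the lowest controls. The difference was -0.91 (SE 0.31) with D4-4 and -0.86 without it, with adjusted limma p of 0.725 and 1.00. Without background correction the Adamts15 difference with all arrays was -0.29.

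In 9 genes all day 4 arrays lay on one side of all controls, 7 of them above (0.0708% of genes) and 2 below (0.0202%). Over D4-1 to D4-3 alone there were 15, of which 10 lay above (0.101%) and 5 below (0.0506%). Besides Magi1 and 5730507C01Rik, the 7 were Rprd2, Ddit4, Ddr1, Polr3e and Pkmyt1. Rprd2, which binds the tail of RNA polymerase II, was 6.82, 6.61, 6.91 and 6.65 on D4-1 to D4-4, against 6.09 to 6.42 on the controls, a difference of 0.51 (SE 0.26). Ddit4, which restrains the growth kinase mTORC1 under stress, was 9.86, 9.47, 9.48 and 10.83, against 8.50 to 9.36 on the controls. D4-4 was the highest array for Ddit4, and the difference of 0.84 (SE 0.43) was 0.54 without it. Without background correction the differences were 0.23 for Rprd2 and 0.74 for Ddit4.

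Ddr1, a receptor tyrosine kinase that binds collagen, was 9.57 to 10.09 on the day 4 arrays and 8.85 to 9.51 on the controls, with a difference of 0.51 (SE 0.31). Polr3e, a subunit of RNA polymerase III, was 7.48, 7.53, 7.52 and 7.86 on the day 4 arrays and 6.78 to 7.43 on the controls. Pkmyt1, a kinase that inhibits Cdk1 before mitosis, was 5.98 to 7.26 on the day 4 arrays and 4.99 to 5.97 on the controls, so the groups were separated by 0.01. Its second probe went the other way, with a difference of -0.15. The gene's difference was also -0.15 with the 11 arrays normalized alone. There the brightest probe was chosen over those arrays and can be the second one, so this is no separate check.

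The 2 genes below all controls were Gucd1 and Efhd1. Gucd1, which encodes a protein with a guanylyl cyclase domain, was 9.74, 9.79 and 9.75 on D4-1 to D4-3 and 9.14 on D4-4, against 9.87 to 10.26 on the controls. Efhd1, a calcium-binding protein of mitochondria, was 7.41, 7.82 and 7.82 on D4-1 to D4-3 and 5.21 on D4-4, where it was not detected, against 7.83 to 8.73 on the controls. Among these 9 genes the exact permutation p, two-sided, was 0.00303 for Rprd2, Magi1, 5730507C01Rik, Ddit4, Pkmyt1, Gucd1 and Efhd1, the smallest that 330 arrangements can give. The genes were chosen because their groups did not overlap, so a p at or near that floor follows from the choice. It is therefore no separate support, and no gene passed after adjustment. The adjusted limma p was 0.725 or above for each of the 9.

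**Figure D3:**
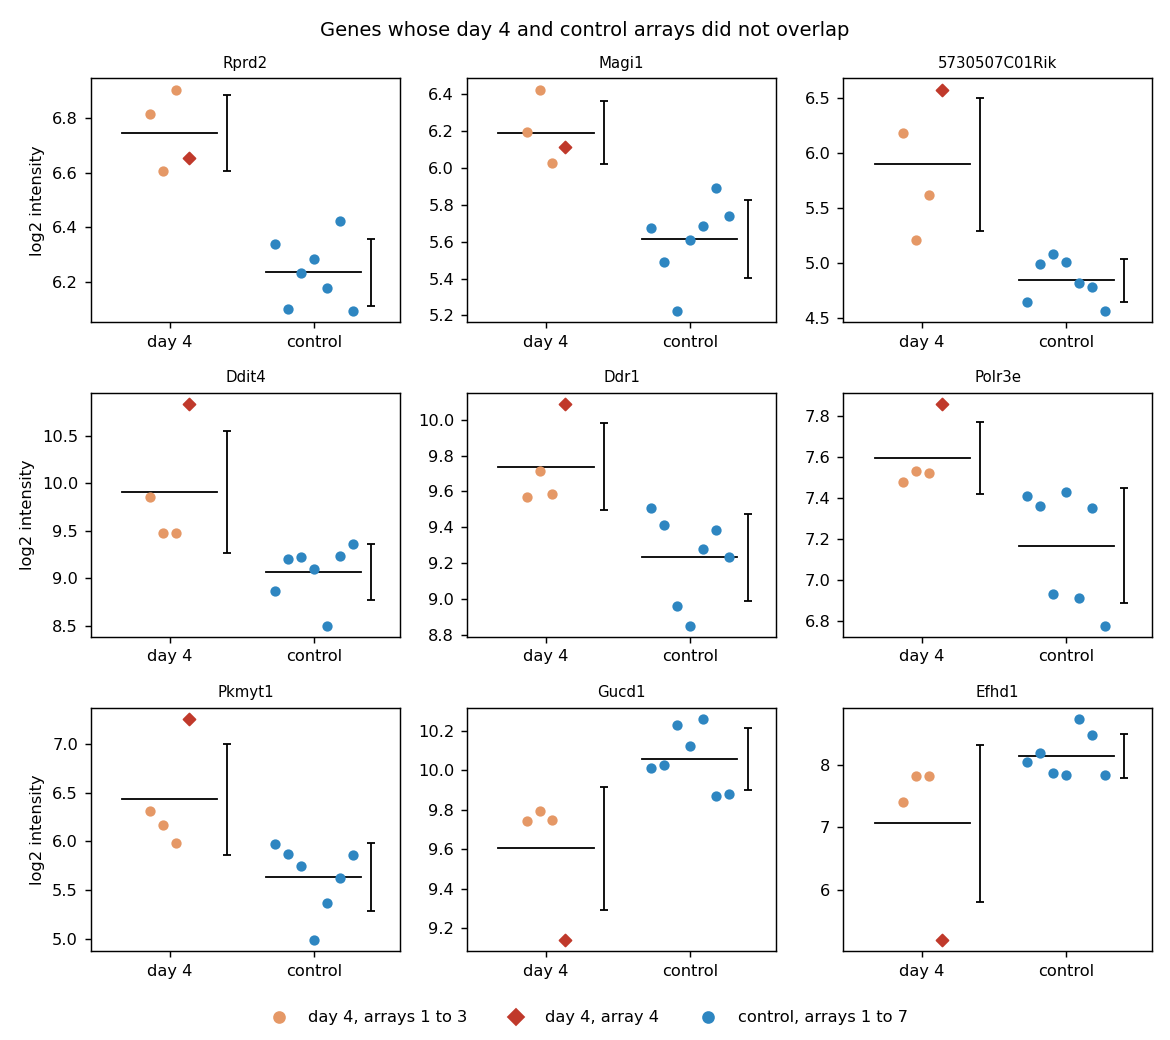
Log2 intensity of the 9 genes whose 4 day 4 arrays and 7 control arrays did not overlap, 1 panel per gene with its own vertical range, with points for arrays, a line for the group mean and a bar for its SD. D4-4 (diamond) is the highest or lowest point in 7 panels and lies among the other day 4 arrays for Rprd2 and Magi1.

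Among the 10 genes with the smallest unadjusted p in the lower direction were 2 homeobox genes that mark body position and a tendon factor. Hoxc9 was 6.23, 8.65, 7.94 and 4.42 on D4-1 to D4-4, against 8.57 to 9.66 on the controls other than control 6, where it was 6.45. D4-1 and control 6 were low together and D4-4 lowest. The Hoxc9 difference was -1.84 (SE 0.76) with D4-4 and -1.05 without it, and that of Hoxc6 was -1.72 (SE 0.72) and -0.80. C1qtnf3, a secreted protein of fat and cartilage, had -1.73 (SE 0.72) and -1.14. Its other probes gave -1.48 and -0.50 with all arrays. The last had day 4 arrays from 4.83 to 5.94 and controls from 4.81 to 6.39, which overlap. Scx, a transcription factor of tendon, was 4.92, 5.99, 5.26 and 4.54 on the day 4 arrays and 5.56 to 6.73 on the controls, with a difference of -0.85 (SE 0.34) and -0.63 without D4-4. Without background correction the differences were -1.11 for Hoxc9, -1.29 for Hoxc6, -0.89 for C1qtnf3 and -0.29 for Scx.

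The 32 gene lists held 429 measured genes, and 0 of these were called by limma. Of the 32 medians 7 were above 0, and 12 without D4-4. Beside each list below, the difference is given with all arrays and without D4-4, and the median of all genes was 0.05 and 0.01. Of all 9890 genes 5399 had positive and 4491 negative differences, and 5189 and 4701 without D4-4. A fit with array weights kept the sign of all 32 medians and moved 23 of them by over 1.5 times, and leaving out the background correction moved 20, of which 2 changed sign. On D4-4 33.8% of all genes were at their highest of the 11 arrays and 30% at their lowest. Host tissue markers on D4-4, pigment genes on control 1 and hair genes on D4-1 and control 6 move with these lists, and their part in each difference was not tested beyond leaving out the arrays named.

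Pigment genes tended to have positive differences, but the spread of the controls was wide. Of 19 measured genes of the melanocyte lineage and melanin synthesis, 17 had positive differences, with a median of 0.76, and 0.41 without D4-4. The list mean was 11.77, 8.73, 10.79 and 11.04 on D4-1 to D4-4, against 6.51 to 11.70 with a median of 10.52 on the controls. The groups overlapped, with D4-2 below 6 of 7 controls. Without control 1, the array poor in pigment genes, the median difference was 0.07, and without D4-1 it was 0.44.

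Dct, which converts dopachrome in melanin synthesis, was 14.49, 13.24, 14.17 and 14.07 on D4-1 to D4-4, against 8.22 on control 1 and 13.72 to 14.53 on the other controls. Its difference was 0.65 (SE 1.29). Tyrp1, a related enzyme of the melanosome, was 13.58, 10.88, 12.87 and 13.72 on the day 4 arrays, against 5.33 on control 1 and 11.43 to 13.41 on the others, a difference of 0.98 (SE 1.58). Gpnmb, a glycoprotein of melanosomes and of macrophages, was 13.27 to 14.28 on the day 4 arrays and 10.06 on control 1, with 13.77 to 14.48 on the other controls. For each of these genes D4-2 was the lowest day 4 array, and control 1 was the lowest of all. The list mean of D4-4 lay within the controls, and 18 of the 19 list members were detected on it.

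The promoters of Tyrp1 and Dct are shown because both hold the letters TCATGTG, known as the M-box, which the pigment cell factor MITF binds. RefSeq promoters of build GRCm38.p6 were searched on both strands in the 250 bases before the start. Of 19 measured pigment genes 11 had a promoter in the table, and Dct, Mc1r, Tyr and Tyrp1 held a match. Over all 32851 promoters 3.25% held one. Capitals mark the match, which reads CACATGA where it lies on the other strand. The Tyrp1 promoter lies at chr4:80833963-80834212, plus strand, and that of Dct at chr14:118052247-118052496, minus strand.
Tyrp1: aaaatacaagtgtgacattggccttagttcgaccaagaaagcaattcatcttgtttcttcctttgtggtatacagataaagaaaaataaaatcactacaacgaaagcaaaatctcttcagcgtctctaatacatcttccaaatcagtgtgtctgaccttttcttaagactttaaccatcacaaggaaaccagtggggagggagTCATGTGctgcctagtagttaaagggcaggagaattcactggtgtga
Dct: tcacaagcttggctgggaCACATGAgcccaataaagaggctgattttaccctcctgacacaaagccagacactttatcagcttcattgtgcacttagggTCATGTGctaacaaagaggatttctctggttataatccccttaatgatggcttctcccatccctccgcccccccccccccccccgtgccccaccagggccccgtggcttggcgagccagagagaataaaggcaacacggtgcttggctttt

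Cell cycle genes had small positive differences. Of 22 measured genes 21 were positive, with a median of 0.53, and 0.22 without D4-4. The list mean was 10.12, 8.36, 9.60 and 10.54 on D4-1 to D4-4, against 8.48 to 9.92 on the controls, with D4-2 below and D4-1 and D4-4 above every control. On D4-4 17 of the 22 genes (77.3%) were at their highest of the 11 arrays. Cenpa, the histone of centromeres, was 12.09, 11.05, 12.08 and 12.84 on the day 4 arrays and 10.91 to 12.28 on the controls, a difference of 0.31 (SE 0.32) and 0.03 without D4-4. The replication helicase genes Mcm6 and Mcm5 had 0.54 (SE 0.41) and 0.36 (SE 0.33), and 0.24 and 0.12 without D4-4. With D4-1, D4-4 and control 6 left out the list median was -0.06.

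Connective tissue genes were lower on average, mainly through D4-4. Of 23 fibroblast and collagen genes 22 had negative differences, with a median of -1.82, and -0.52 without D4-4. It was -0.28 with array weights and -1.20 without background correction. At an unadjusted limma p under 0.05, 5 of the 23 were lower, beside 1.15% of all genes, and without D4-4 none was, beside 0.0404%. The list mean was 9.44, 11.08, 10.83 and 6.20 on D4-1 to D4-4, against 9.79 to 11.49 on the controls. D4-2 and D4-3 lay within the controls, and 7 of the 23 genes were detected on D4-4.

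Col1a1, the main chain of type I collagen, had the lowest difference of the list and was 11.20, 13.59, 13.31 and 4.43 on D4-1 to D4-4, against 12.35 to 14.20 on the controls. Its difference was -2.91 (SE 1.38) and -0.84 without D4-4. Col3a1, of type III collagen, was 8.20, 10.71, 9.26 and 4.56, against 8.71 to 11.46, with a difference of -2.27 (SE 0.98) and -1.06 without D4-4. Dcn, the proteoglycan decorin, was 12.46, 14.23, 14.10 and 4.38, against 13.10 to 14.37. These genes were lowest on D4-4, next lowest on D4-1 among day 4 arrays, and lowest on control 6 among controls.

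Not every gene of the list was near background on D4-4. Sparc, a matrix protein that melanoma cells also secrete, was 11.49 on D4-4, 12.93 on D4-2, 12.98 on D4-3 and lowest of the 4 on D4-1, against 10.86 to 13.69 on the controls. Vim, an intermediate filament of mesenchymal and melanoma cells, was 13.31, 12.98, 13.31 and 13.20, against 12.67 to 13.47. Its difference was -0.06 (SE 0.28). Among 22 genes of matrix remodelling and wound repair 19 had negative differences, with a median of -0.65, and -0.22 without D4-4, -0.27 with array weights and -0.35 without background correction. Mmp2, a gelatinase of stromal cells, was 10.99, 13.10, 12.85 and 7.55, against 11.84 to 13.87 on the controls.

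Muscle, fat and epidermis genes followed the same arrays. All 24 skeletal muscle genes had negative differences, with a median of -2.13, and -0.68 without D4-4. The muscle mean was 9.19, 12.08, 11.60 and 5.37 on D4-1 to D4-4, against 9.74 to 13.30 on the controls. Acta1, the actin of skeletal muscle, was 12.40, 14.06, 14.18 and 4.56, against 13.09 to 14.40, a difference of -2.70 (SE 1.41) and -0.46 without D4-4. Tnnc2, a troponin of fast muscle, had -2.40 (SE 1.44) and -0.29, and Myl1, a myosin light chain, -2.60 (SE 1.41) and -0.35. D4-2 and D4-3 were within the controls for Acta1 and Tnnc2. With array weights the medians were -0.27 for muscle, -0.65 for adipocytes and -0.32 for epidermis.

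All 12 adipocyte genes had negative differences, with a median of -1.92, and -0.58 without D4-4. Averaged over the list, the level was 9.14, 11.82, 10.99 and 5.94 on D4-1 to D4-4, against 9.42 on control 6 and 11.19 to 11.94 on the other controls. Lpl, the lipase that releases fatty acids from lipoproteins, was 11.87, 13.79, 13.38 and 4.52, against 11.81 to 14.23. Scd1, which desaturates fatty acids, was 12.05, 14.17, 13.49 and 10.56, against 12.27 to 14.03. Car3 had the lowest difference of the list, -3.10 (SE 1.57) and -1.17 without D4-4. D4-1 was thus low in fat genes together with control 6, and D4-4 lower still.

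All 21 epidermal genes had negative differences, with a median of -1.88, and -0.31 without D4-4, when 20 of 21 were negative. Their mean was 9.78, 11.78, 11.11 and 4.70 on D4-1 to D4-4, against 10.36 to 11.97 on the controls, and 0 of the 21 genes were detected on D4-4. Krt14, of basal keratinocytes, was 13.82, 14.43, 14.55 and 4.47, against 14.18 to 14.50. Krt10 and Lor, of the upper layers, were 4.59 and 4.47 on D4-4 and at least 13.30 on every other array of the 11. With D4-1, D4-4 and control 6 left out the medians were 0.15 for epidermis, -0.12 for muscle, -0.31 for adipocytes and -0.18 for fibroblasts.

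Hair follicle genes had 5 of 7 positive differences, with a median of 0.46, and 1.07 without D4-4. The mean of the 7 genes was 11.10, 6.61, 7.75 and 4.88 on D4-1 to D4-4, against 11.85 on control 6 and 5.95 to 7.91 on the other controls. Without D4-1 the median was -1.23, without control 1 it was 0.10, and without D4-1 and control 6 it was -0.04. Dlx3, a homeobox factor of hair and epidermis, was 10.99, 9.02, 9.61 and 5.19, against 7.51 to 11.94, and Gata3, a factor of the inner root sheath and of T cells, was 9.51, 11.13, 10.40 and 5.25, against 9.92 to 11.07. Dlx3, like Krt28, was highest on D4-1 within its group and on control 6 within the controls.

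**Figure D4:**
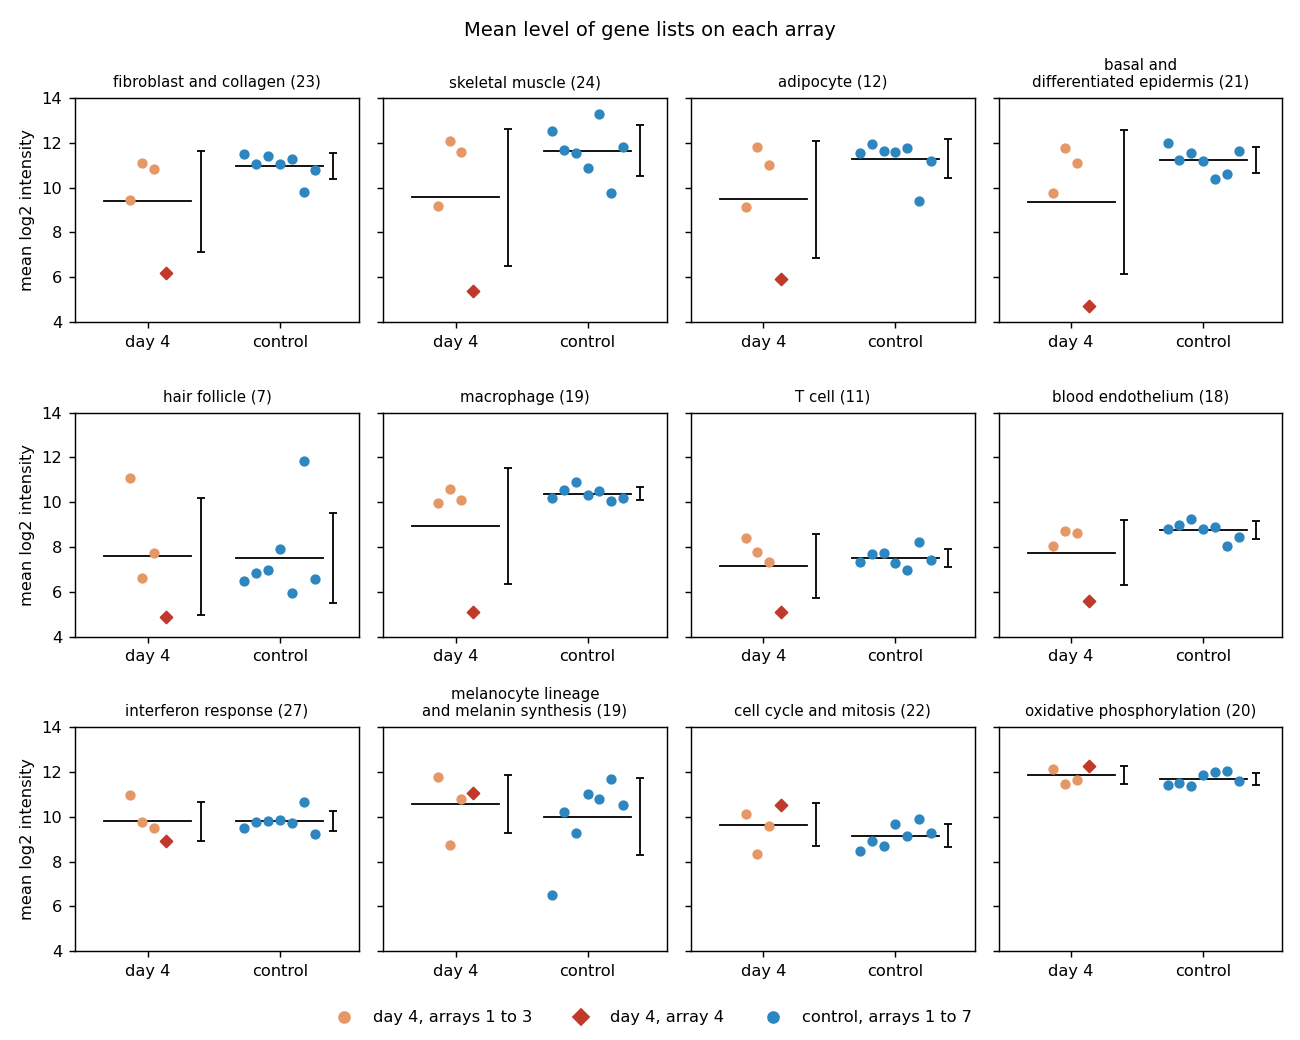
Mean log2 intensity of 12 gene lists on each array, with the number of measured genes in brackets, points for arrays, a line for the group mean and a bar for its SD. D4-4 (diamond) is the lowest array for fibroblast, muscle, fat, epidermis, hair, macrophage, T cell, endothelial and interferon lists, and the highest for cell cycle and oxidative phosphorylation.

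Macrophage genes were low on D4-4. Their mean lay within the controls on D4-2 and D4-3 and just below them on D4-1. All 19 macrophage genes had negative differences, with a median of -1.45, and -0.14 without D4-4. It was -0.25 with array weights and -0.89 without background correction. The list mean was 9.95, 10.59, 10.11 and 5.11 on D4-1 to D4-4, against 10.04 to 10.91 on the controls. Lyz1, a lysozyme, was 14.02, 14.53, 14.22 and 5.97, against 13.97 to 14.45, and Lyz2, the lysozyme of macrophages and neutrophils, was 13.62, 13.91, 14.06 and 5.80, against 13.37 to 14.29. These near-identical paralogs may share signal. C1qa, a complement chain made by macrophages, was 8.86, 9.97, 10.15 and 4.79, against 8.87 to 10.46. Lgmn, a lysosomal protease also made by other cells, was 12.67, 12.18, 11.97 and 10.98, against 11.72 to 12.80.

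Genes of dendritic cells and MHC class II had a median of -0.93 over 14 genes, and 0.09 without D4-4. Cd74, the chaperone of newly made MHC class II, was 13.77, 14.22, 14.02 and 7.19 on D4-1 to D4-4, against 13.54 to 14.27 on the controls. H2-Ab1 and H2-Eb1, chains of MHC class II, were 4.50 and 4.54 on D4-4 and at least 12.71 on the other 10 arrays. Mast cell genes had a median of -1.11 over 7 genes, and -0.37 without D4-4. Mcpt4, a mast cell chymase, was 8.17, 10.85, 10.45 and 4.45, against 9.55 to 10.99, and Cpa3, a mast cell carboxypeptidase, was 8.03, 10.61, 9.75 and 4.43, against 8.57 to 10.83. The medians of the other myeloid lists were -0.78 for alternatively activated macrophages, -0.78 for neutrophils and -0.91 for inflammatory cytokines, and -0.15, -0.10 and -0.04 without D4-4. With array weights they were -0.19, -0.29 and -0.14, those of dendritic cell and mast cell genes -0.11 and -0.33, and without background correction the mast cell median was -0.60.

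T cell genes had opposite signs with and without D4-4. Of 11 genes 10 had negative differences with all arrays, with a median of -0.22, and 9 of 11 had positive ones without D4-4, with a median of 0.38. The T cell mean was 8.40, 7.76, 7.35 and 5.09 on D4-1 to D4-4, against 6.97 to 8.21 on the controls, with D4-1 and control 6 the highest of their groups. Without these 2 arrays the median was -0.58, with array weights it was -0.09, and without background correction it was -0.06. Cd3g, a chain of the T cell receptor complex, was 9.97, 9.01, 8.63 and 4.75, against 7.75 to 9.82. Thy1, a surface protein of T cells and fibroblasts that stands in both lists, was 11.71, 12.24, 12.46 and 4.54, against 11.52 to 12.91. Cd8b1, a chain of the CD8 co-receptor, did not follow the list, with 11.35, 10.93, 11.18 and 10.60, against 10.84 to 11.56.

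Cytotoxic lymphocyte genes had a median of -0.14 over 6 genes, and 0.30 without D4-4. Ccl5, a chemokine of activated T cells, was 7.39 to 9.73 on the day 4 arrays, against 6.42 to 9.71 on the controls. Nkg7, of cytotoxic granules, was 9.82, 8.04, 7.44 and 4.65, against 6.48 to 9.65, and Prf1, the pore protein perforin, was 9.18, 9.81, 9.34 and 7.22, against 8.68 to 9.89. Regulatory T cell and checkpoint genes had a median of -0.40 over 9 genes, and 0.16 without D4-4. Foxp3, the factor of regulatory T cells, was 9.98, 9.11, 9.41 and 10.04, against 9.15 to 9.87, and Cd274, the checkpoint ligand PD-L1, was 10.22, 9.10, 9.39 and 9.98, against 8.63 to 10.22. Foxp3 was highest on D4-4 although Cd3g was not detected there. With array weights the checkpoint median was -0.06, and without background correction it was -0.13, and that of cytotoxic genes 0.01. The B cell list, with 2 measured genes, had a median of -0.55, and -0.13 without D4-4.

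Interferon response genes were higher on D4-1 and control 6 than on the other arrays. Of 27 genes 11 had positive differences, with a median of -0.08, and 24 of 27 without D4-4, with a median of 0.23. The interferon mean was 10.99, 9.78, 9.50 and 8.91 on D4-1 to D4-4, against 10.68 on control 6 and 9.22 to 9.85 on the other controls. Cxcl9, a chemokine induced by interferon-gamma, was 11.97 on D4-1 and 12.05 on control 6, with 4.54 to 8.89 on the other day 4 arrays and 8.32 to 9.59 on the other controls. Cxcl10, a related chemokine, was 11.17, 7.98, 8.21 and 10.05, against 11.05 on control 6 and 7.01 to 8.51 on the others. D4-4 thus had Cxcl10 above all controls but control 6, while Cxcl9 was not detected on it. Irgm1, an interferon-inducible GTPase, was 13.48, 12.69, 12.12 and 12.62, against 12.30 to 13.36, while B2m, the light chain of MHC class I, was 13.85 to 14.27, against 14.02 to 14.33, and the difference of Ifi27 was 0.25 (SE 0.32). Without D4-1 the list median was -0.43, and -0.29 without D4-1 and control 6.

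Vessel genes were lowest on D4-4. With array weights the medians below were -0.33 for blood and -0.39 for lymphatic endothelium, and without background correction -0.71 and -0.69. Of 18 blood endothelial genes 16 had negative differences, with a median of -1.18, and -0.32 without D4-4, and the list mean was 8.05, 8.74, 8.61 and 5.60 on D4-1 to D4-4, against 8.03 to 9.25 on the controls. Aqp1, a water channel, was 9.92, 11.56, 10.47 and 4.95, against 9.74 to 11.61, and Plvap, a protein of endothelial pores, was 8.25 on D4-4 and at most 10.69 on the other day 4 arrays, against 8.63 to 11.35. Egfl7, a secreted endothelial factor, ran the other way at 11.03, 10.11, 10.63 and 12.39, against 9.83 to 10.79. Lymphatic genes had a median of -1.28 over 4 genes, and -0.38 without D4-4. Lyve1, of lymphatic vessels and some macrophages, was 4.38 on D4-4 and 7.59 to 9.11 on the other day 4 arrays, against 6.43 to 10.04 on the controls, while Pdpn, a glycoprotein of lymphatics and keratinocytes, was 11.37 to 11.93, against 11.48 to 12.42.

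The VEGF and TGF-beta pathways showed small medians. The VEGF list had a median of -0.04 over 8 genes, and -0.21 without D4-4. Vegfa, the main vessel growth factor, was 10.06, 9.73, 10.20 and 10.29 on D4-1 to D4-4, against 9.01 to 10.69 on the controls, and Vegfb was 12.72, 10.32, 11.39 and 12.59, against 9.62 to 12.48. The receptors followed the vessel genes, with Flt1 at 9.02, 9.74, 9.64 and 4.43, against 8.77 to 10.10, and Nrp1 at 10.69, 10.93, 10.81 and 9.45, against 10.50 to 11.37. The TGF-beta list had a median of -0.10 over 21 genes, and -0.08 without D4-4. Tgfb1, the ligand, was 8.58, 8.81, 8.84 and 8.93, against 8.22 to 9.14. Its receptor Tgfbr1 had a difference of 0.00 (SE 0.22) and Tgfbr2 one of -0.67 (SE 0.44), with 10.86 on D4-4. Tgfbi, a matrix protein induced by the pathway, was 11.21, 12.97, 12.50 and 6.31, against 11.24 to 13.45.

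Genes of metabolism had small positive list medians with all arrays. With D4-1, D4-4 and control 6 left out the medians were 0.02 for hypoxia and glycolysis and -0.06 for oxidative phosphorylation. In that setting they were -0.04 for chaperone and proteasome genes and 0.09 for ribosomal protein genes. Hypoxia and glycolysis genes had 15 of 17 positive, with a median of 0.36, and 13 of 17 without D4-4, with a median of 0.14. Ldha, which makes lactate, was 14.40, 13.73, 14.27 and 14.37, against 13.83 to 14.40 on the controls, and Pkm and Tpi1, enzymes of glycolysis, had differences of 0.48 (SE 0.37) and 0.17 (SE 0.36). Oxidative phosphorylation genes had a median of 0.13 over 20 genes, and 0.04 without D4-4, and Atp5b, a subunit of ATP synthase, was 14.30 to 14.49, against 14.36 to 14.44. The 5 measured ribosomal protein genes had a median of 0.24, and 0.01 without D4-4. Chaperone and proteasome genes had a median of 0.15 over 16 genes, and 0.09 without D4-4. Mbp, of the myelin sheath, was 12.36, 10.71, 11.61 and 13.61, against 9.99 to 11.99, in a Schwann cell list with a median of -0.04, and -0.14 without D4-4. The medians of the remaining lists were -1.20 for smooth muscle, -0.74 for gland epithelium, -0.49 for immediate early genes and -0.83 for Alas2, the 1 measured erythroid gene, and -0.31, -0.28, -0.14 and -0.39 without D4-4. The smooth muscle median was -0.20 with array weights and -0.58 without background correction.

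The genes highest on D4-4 against the median of the other 10 arrays were Cxcl1, a chemokine for neutrophils, Trib3, a pseudokinase induced by stress, Fam178b, Rgs16, Crmp1, Ddx25, Odf3l1, Fbxo2, Nckap5l and Angptl6. These were chosen for D4-4 and are given as a description. Cxcl1 was 11.76 on D4-4, 6.08 to 6.34 on the other day 4 arrays and 5.19 to 8.33 on the controls, and Trib3 was 13.09, against 6.96 to 8.77 on the other 10 arrays. The genes lowest there were Lce1m, Dmkn, Krt14, Dcn, Krt10, Lor, Acta1, Kprp, Myl1 and Calm4, which were 4.32 to 4.94 on D4-4 and not detected.

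Trib3 belongs to the amino acid response, in which the factor ATF4 induces genes of amino acid supply when amino acids are scarce or the endoplasmic reticulum is stressed. A list of this response and of one-carbon metabolism was written after the values of D4-4 were seen, so it has no test. Of its 18 measured genes 12 (66.7%) were at their highest of the 11 arrays on D4-4, beside 33.8% of all genes. Asns, asparagine synthetase, was 13.60 on D4-4, at most 10.78 on the other day 4 arrays and 9.96 to 10.64 on the controls. Atf4 itself was 12.45 on D4-4, 10.62 to 10.83 on the other day 4 arrays and 10.52 to 11.37 on the controls.

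Ddit3, a stress factor downstream of ATF4, was 12.77 on D4-4, 8.68 on D4-2 and 9.55 on D4-3, and 8.15 to 9.55 on the controls. Phgdh, the first enzyme of serine synthesis, was 3.76 above the median of the other 10 arrays on D4-4, and at most 8.76 on those arrays. The mitochondrial folate enzymes Shmt2, Mthfd2 and Aldh1l2 were 10.14, 13.47 and 11.86 on D4-4, against at most 8.07, 11.49 and 8.56 elsewhere. Chac1, which degrades glutathione, was 12.09 on D4-4, with 11.66 on control 6. Cebpb, Nupr1, Vldlr, Slc38a2, Cbs and Atf3 of the same list were not at their highest on D4-4. Ddit4, of the same list, was the member whose day 4 arrays also lay above the controls without D4-4.

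The promoters of Asns and Chac1 are shown because these genes were high on D4-4 and hold TGATGNAA, the letters of the composite element that ATF4 binds with a partner. The search was the same, and 17 of the 18 genes had a promoter in the table. A match was found for 6, namely Asns, Atf3, Chac1, Nupr1, Slc7a11 and Vldlr, and for 3.45% of all promoters. Atf3, Nupr1 and Vldlr, with a match, were not highest on D4-4, and Trib3, without one in this window, was. Capitals mark the match, which reads TTGCATCA on the other strand. In Asns the match overlaps a match of TCATGTG read on the other strand, in the letters before it. The Asns promoter lies at chr6:7693210-7693459, minus strand, and that of Chac1 at chr2:119350992-119351241, plus strand.
Asns: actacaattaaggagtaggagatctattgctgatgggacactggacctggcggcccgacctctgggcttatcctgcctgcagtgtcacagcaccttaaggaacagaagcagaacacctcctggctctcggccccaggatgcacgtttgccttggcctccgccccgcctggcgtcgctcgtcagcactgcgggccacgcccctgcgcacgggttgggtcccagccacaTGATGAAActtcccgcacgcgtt
Chac1: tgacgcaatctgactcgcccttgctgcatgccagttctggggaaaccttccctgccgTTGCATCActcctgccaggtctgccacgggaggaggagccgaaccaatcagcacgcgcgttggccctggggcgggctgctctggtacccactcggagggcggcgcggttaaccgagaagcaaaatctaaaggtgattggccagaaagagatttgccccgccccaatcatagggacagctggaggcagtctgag

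**Figure D5:**
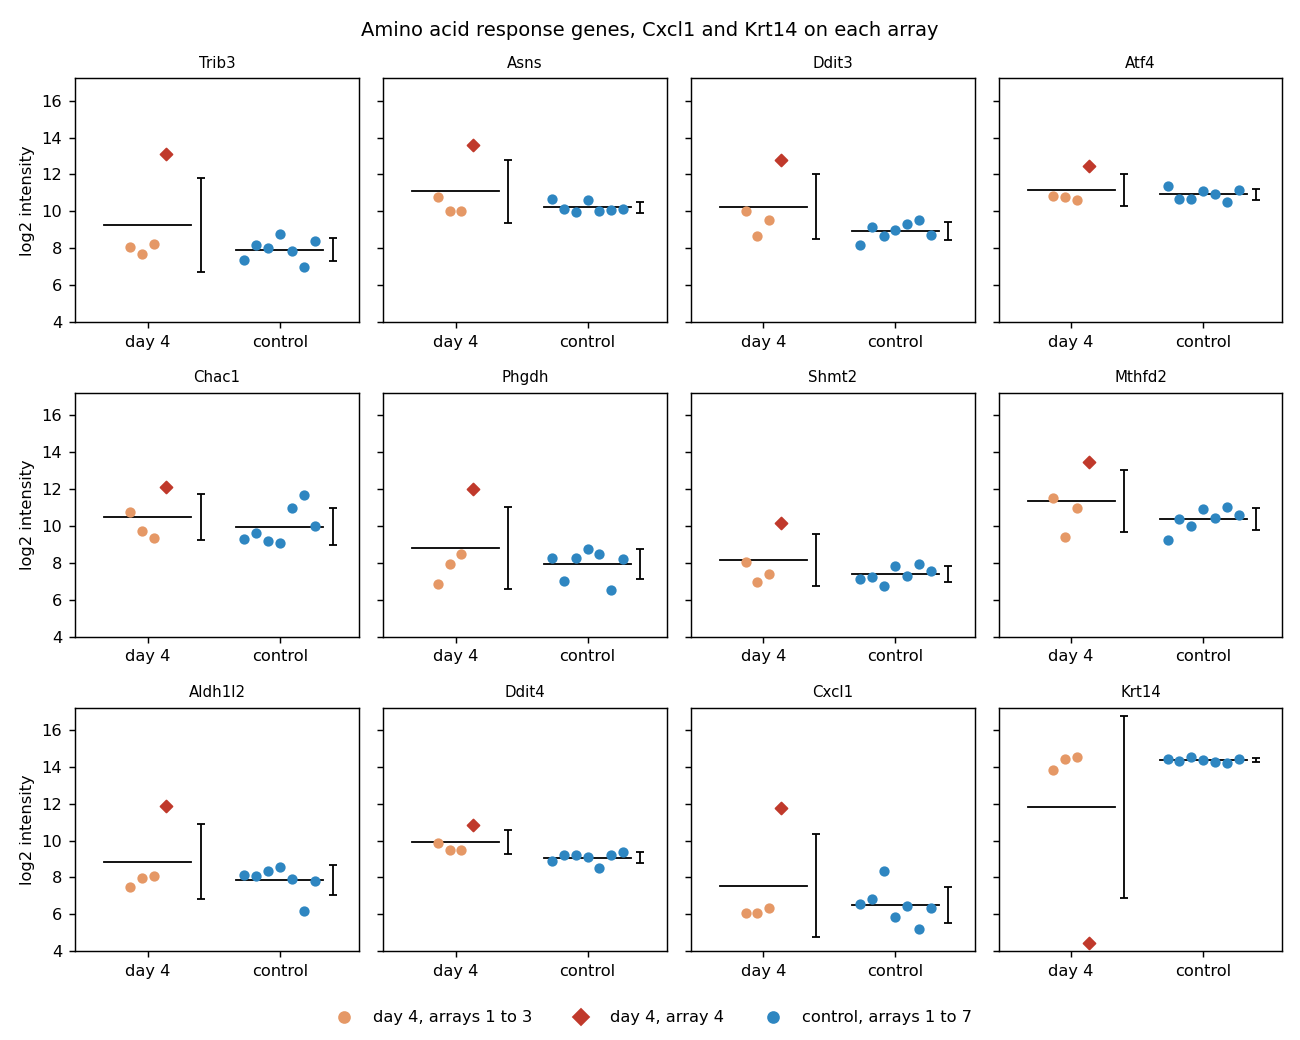
Log2 intensity of 10 amino acid response and one-carbon genes, Cxcl1 and Krt14 on each array, with points for arrays, a line for the group mean and a bar for its SD. D4-4 (diamond) is the highest array in the first 11 panels and is at 4.47 for Krt14, while D4-1 to D4-3 overlap the controls except for Ddit4.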

How the data were processed

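Total RNA was hybridised as biotin-labelled cRNA to Illumina bead arrays, 38 in all. The deposited non-normalized file lists, per the file headers, a linear signal intensity and a detection p-value for each of 45272 probes. A second file deposited by the authors has log2 intensity for 16247 probes, equal to quantile-normalized signals without background correction (largest difference 5e-14). BeadStudio and limma stand in the submitters' processing notes. Every column belonged to a sample.

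Signals were background-corrected with limma 3.58.1 in R 4.3.3 (normal-exponential model on detection p-values, offset 16), quantile-normalized over all arrays and log2-transformed. Gene names came from GEO's platform annotation, which gave 14836 of those 16247 a single symbol, 5 several and 1406 none, and 14830 were found by Entrez identifier in RefSeq's gene table for GRCm38.p6. Requiring detection (p under 0.05) on 4 arrays removed 0 named probes. The brightest probe stood for each of the 9890 genes (3486 have several). A limma model with 7 group means left 31 residual degrees of freedom, and calls used a Benjamini-Hochberg adjusted p under 0.05. The fit was tested on simulated data with independent noise of equal spread on every array. Those data held no outlying array such as D4-4, so that test does not cover such arrays.

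Genes named were the 10 with the smallest p in each direction, with and without D4-4 (in part), those whose groups did not overlap, the 10 highest and 10 lowest on D4-4, and up to 3 members of each list with the highest mean (in part). Col1a1, Col3a1, C1qa, Cxcl9, Cxcl10, Tyrp1, Tgfb1, Flt1 and the amino acid response genes were chosen after their values were seen. Of 621 list genes 429 were measured, and the others had no probe with that single symbol among the 16247. The members and lists were chosen with earlier results of these data known. Alternatives covered background correction, normalization, weights, filters, probe choice, the replicate number as a block and arrays left out.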

Additional observations from a re-analysis of the deposited data

Results flagged for a closer look

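For 72 genes and 32 list means, the highest or lowest array of a group was set against the other arrays of the group by Dixon's test, separately in the 4 day 4 arrays and the 7 controls. Chance would single out about 1 in 20 independent groups, but the counts here cannot be read against that share. Several of the genes were chosen because they were lowest on D4-4, that array was picked out beforehand for host genes near background, and genes and lists that move together are not independent. The values below are therefore a description. Of 208 groups tested 44 had an array that stood far from the others, 18 of them on D4-4, 18 on control 6, 5 on control 1 and 1 on control 2.

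On D4-4 the list means stood apart for macrophage (5.11), neutrophil (4.99), dendritic cell (5.48) and inflammatory (5.79) genes, which were low, and for ribosomal protein genes (12.98), which were high. Among single genes it stood apart for Gucd1 (9.14), Efhd1 (5.21), Krt14 (4.47), Krt10 (4.59), Lor (4.47), Lyz1 (5.97), Lyz2 (5.80), Cd74 (7.19), H2-Ab1 (4.50), H2-Eb1 (4.54), Thy1 (4.54) and Nrp1 (9.45), all low, and Polr3e (7.86), high. D4-3 stood apart for Adamts15 (5.42) and D4-2 for Gpnmb (13.27).

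Control 6 stood apart with low list means for fibroblast (9.79), adipocyte (9.42) and alternatively activated macrophage (8.09) genes and high ones for hair follicle (11.85) and interferon (10.68) genes. It was low for Hoxc9 (6.45), Dcn (13.10), Acta1 (13.09), Myl1 (13.31), Car3 (9.99), Lpl (11.81), Scd1 (12.27), Plvap (8.63) and Lyve1 (6.43), and high for Krt28 (12.60), Dlx3 (11.94), Irgm1 (13.36) and Atp5b (14.44). Control 1 stood apart for Mlana (4.63), Dct (8.22), Gpnmb (10.06), Vim (12.67) and Pdpn (12.42), and control 2 for Alas2, the 1 measured erythroid gene (9.88).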

How the results depend on the processing

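No alternative called a gene at an adjusted p under 0.05, in 26 settings, and the smallest adjusted p was 0.056, with array weights. The number of genes at an unadjusted limma p under 0.05, 195, was 1223 with array weights, 821 with the replicate block, 26 with D4-1 to D4-3 and the controls fitted alone, 5 without D4-4 and arrays 2 and 5 of wild-type day 14, and 2 without D4-1, D4-4 and control 6. Leaving out 1 array gave 4 (without D4-4) to 1607 (without D4-2). The genes at that p differ between settings. The share of each setting's genes that was higher on day 4 arrays, 41.5%, was 53.5% without background correction, 28.1% with cyclic loess, 59.8% with the 11 arrays alone and 51.6% with array weights. The genes whose groups did not overlap, 9, were 5 with median centring, 15 without the 3 arrays poor in host genes, 15 over D4-1 to D4-3, 109 without D4-1 and control 6, and 225 without D4-1, D4-4 and control 6, where fewer arrays separate more easily, and 10 to 213 with 1 array left out. Lists with a median above 0, 7 of 32, were 12 without D4-4 and in the 3 further settings without it, in 1 of which the Schwann cell median, counted as above 0, rounds to 0.00, and 7 to 12 with 1 array left out. Leaving out other groups' arrays changes neither these medians nor the non-overlap counts once D4-4 is out, so those settings are no separate check. Pkmyt1 turned to -0.15 with the 11 arrays alone, where the brightest probe can be its second one, and was 0.32 with the mean of its probes. The fits with the 10 arrays alone, without D4-1 and control 6 and without D4-1, D4-4 and control 6 were added after the data were seen. Same-numbered arrays of the groups had correlations of deviations of -0.48, 0.40, 0.45 and 0.27. The control with the highest correlation had the same number for D4-3 alone. So few values cannot show whether the numbers pair the arrays. Of the 32 list medians, 23 moved by over 1.5 times with array weights (0 changed sign), 20 without background correction (2), 31 without D4-4 (5), 16 without D4-2 (1), 11 without D4-1 (3) and 8 without control 6 (2). Except for array sets and the replicate block, the cause of these changes was not tested.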
